A study of Mus musculus with 22 samples.

Results

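Fibroblasts given Oct4 and Sox2 as VP16 fusions together with Klf4 (OvSvK) were compared with fibroblasts given Oct4, Sox2 and Klf4 without a fusion (OSK) on days 1 and 3. The comparison holds 4 of the 22 samples of the series, chosen by their labels: 1 OvSvK and 1 OSK library on each day. Day 0 of both arms was left out, because the OSK library of that day departs strongly from the others by the GC content of its genes. All 4 samples are total RNA of OG2 transgenic mouse embryonic fibroblasts at passage P2, from a mixed background of the strains 129SVJ, C57B6 and CBA. RNA was taken on the named day after 2 days of transfection, and libraries were made with the TruSeq kit. The same fibroblasts given GFP, and fibroblasts given OSK in medium lacking bFGF, vitamin C or GSK3 inhibitors, are quoted beside some genes. The series asks how transcription changes in the OvSvK system, described as reaching reprogrammed cells in fewer days, and in the OSK system.

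Oct4, encoded by Pou5f1, and Sox2 bind DNA side by side and hold the network of genes that keeps embryonic stem cells pluripotent. Klf4 binds many of the same regulatory regions and also acts on epithelial genes. VP16 is the activation domain of a viral protein that recruits the transcription machinery strongly, so a fusion turns a DNA-binding factor into a stronger activator. Reprogrammed fibroblasts lose mesenchymal genes and gain epithelial genes early, gain genes such as Epcam and Sall4 next, and gain Nanog and its partners late.

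The 4 libraries held 17783282 and 12764457 expected counts in OvSvK on days 1 and 3, and 9412932 and 9226523 in OSK. Levels are given as CPM, the count scaled to a common library total with TMM factors (edgeR). A count of 3 equalled 0.171 and 0.22 CPM in the OvSvK libraries and 0.335 and 0.328 CPM in the OSK libraries. The fibroblast genes Col1a1, Vim and Fn1 were among the abundant genes in all 4 libraries, at 668 to 5492 CPM. A pair of library features moved with the arm. The pseudogene Rpsa-ps10 held 0.186% and 0.281% of the counts it shares with its parent gene Rpsa in OvSvK, against 7.78% and 7.02% in OSK. The other libraries of OSK and of GFP after day 0 had 3.32% to 6.79%, and the 6 libraries with an omission had 0.124% to 0.37%, so arm and set of libraries cannot be told apart here. Tested genes in the lowest of 5 groups by GC content deviated from the mean of the 4 libraries by 0.32 and 0.29 (median, log2) in OvSvK, against -0.60 and 0.01 in OSK.

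Of 13259 genes tested, 820 were higher in OvSvK than in OSK, or 6.18%, and 443 were lower, or 3.34% (edgeR quasi-likelihood test with day as a block, Benjamini-Hochberg adjusted p under 0.05). Each arm has a single library on each day, so the error of the test is how differences vary between day 1 and day 3. It says nothing of the spread between cultures. The fit has 1 residual degree of freedom against a median of 6.836 for the part pooled over genes. A call therefore does not show that a gene's own difference was steady. No call was left when GFP or day 0 was added to the fit or when day was not a block, and 93 and 28 genes were called when OvSvK on day 3 was set against the 3 OSK libraries with an omission. Those 3 libraries differ from each other in medium, so the error of that fit is the spread between media and not between replicates. A 2-fold difference in the same direction on both days, which involves no test, was seen in 672 genes higher in OvSvK, or 6.22% of 10797 genes reaching 5 CPM on each day, and in 397 genes lower, or 3.68%. The median log2 difference over all genes tested was 0.03.

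Both directions were set against the embryonic stem cells and embryonic fibroblasts of the series. Of the genes higher in OvSvK, 781 have a value in the authors' series table, and 375, or 48.0%, had a score at least 2-fold higher in embryonic stem cells than in embryonic fibroblasts, against 24.2% of all genes tested. Of the genes lower in OvSvK, 244 of 439, or 55.6%, had the fibroblast score at least 2-fold higher, against 27.2% of all genes tested. In addition 164 of the 820 higher genes lay under 1 CPM in the GFP libraries of days 1 and 3, against 7.15% of all genes tested. These shares are descriptions without a test.

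**Figure D1:**
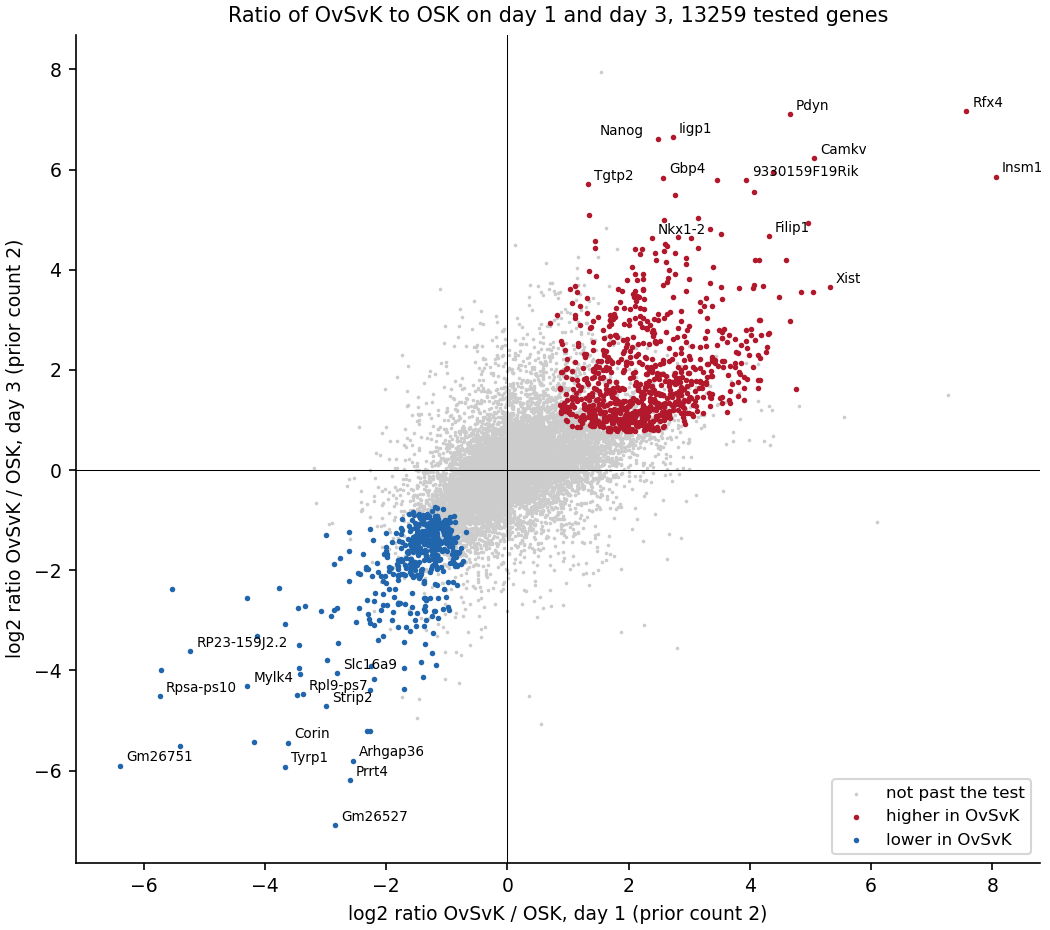
Log2 ratio of OvSvK to OSK on day 1 (x axis) and day 3 (y axis), 1 point per gene of the 13259 tested, with genes past the edgeR test in red where higher in OvSvK and in blue where lower. The called genes lie in the upper right and lower left corners, with Rfx4 and Pdyn at one end and Gm26751 and Gm26527 at the other.

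The introduced factors differed in their proportions. Pou5f1 (ENSMUSG00000024406, mm10 chromosome 17, 35506018 to 35510772) had 791 and 885 CPM in OvSvK on days 1 and 3, against 126 and 61.8 CPM in OSK, a log2 difference of 3.24 (SE 0.35, adjusted p = 0.00987). Both OvSvK libraries lay above both OSK libraries. The ratio was 6.27 on day 1, with an exact 95% Poisson interval of 5.90 to 6.66, and 14.3 on day 3, with an interval of 13.2 to 15.6. These intervals, here and below, cover counting error only.

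Sox2 (chromosome 3) did not follow Pou5f1. It had 165 and 170 CPM in OvSvK, against 404 and 185 CPM in OSK (log2 difference -0.71, SE 0.33, adjusted p = 0.209). Klf4 (chromosome 4), which carries no fusion in either arm, had 610 and 663 CPM in OvSvK and 646 and 382 CPM in OSK (0.36, SE 0.28, adjusted p = 0.451). Neither passed the test. In the 3 libraries of OSK with an omission on day 3, Pou5f1 stood at 56.6 to 74.2 CPM, Sox2 at 446 to 593 CPM and Klf4 at 767 to 1147 CPM. The counts join transcripts of the introduced and the native genes.

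Of 20 genes listed as naive or late pluripotency genes, 11 had counts high enough to be tested, and 7 were higher and none lower in OvSvK. Their median log2 difference was 2.65. Nanog, the homeobox gene that marks the late state, was the furthest apart. It had 1.99 and 58.6 CPM in OvSvK on days 1 and 3, against 0.223 and 0.438 CPM in OSK, which rest on 2 and 4 counts (6.14, SE 0.81, adjusted p = 0.0123). The ratio was 8.93 on day 1 (interval 2.30 to 76.7) and 134 on day 3 (interval 52.1 to 492). On the other days of OvSvK Nanog had 0.68, 9.73 and 142 CPM on days 0, 2 and 4, against 2.36 and 100 CPM on days 5 and 7 of OSK.

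Nr0b1, which encodes the nuclear receptor Dax1, had 4.38 and 29.2 CPM in OvSvK and 0.112 and 2.19 CPM in OSK (4.04, SE 0.53, adjusted p = 0.0123). Zscan10, a zinc finger gene of stem cells, had 1.54 and 21.1 CPM in OvSvK and 0.112 and 1.42 CPM in OSK (3.84, SE 0.58). Tet1, whose enzyme oxidises methylated cytosine, had 5.41 and 29.2 CPM in OvSvK, against 0.892 and 4.05 CPM in OSK (2.74, SE 0.42). In each of these genes both OvSvK libraries lay above both OSK libraries, Zscan10 with the smallest gap. Zfp42 (Rex1), Klf2 and Dppa2 were also higher, by 2.65, 2.44 and 4.35 on the log2 scale. The adjusted p of the 5 genes after Nr0b1 lay between 0.0159 and 0.0342.

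The untested members were mostly silent on day 1 and appeared in OvSvK on day 3. Nr5a2 had 0.228 and 22.1 CPM in OvSvK and 0 and 0.219 CPM in OSK, a ratio on day 3 of 101 (interval 27.7 to 836). Esrrb had 0.171 and 13.3 CPM in OvSvK and 0.112 and 0.219 CPM in OSK, a ratio on day 3 of 60.6 (interval 16.5 to 504). Utf1 had 0 and 5.06 CPM in OvSvK and no count in either OSK library, at least 15.4-fold higher on day 3 against a floor of 3 counts. Dnmt3l, Tcl1, Prdm14 and Dppa4 stayed under 1 CPM in all 4 libraries.

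Tfcp2l1, a transcription factor gene of the naive state, went the other way on day 3. It had 34.2 and 115 CPM in OvSvK and 28.9 and 730 CPM in OSK, and the difference did not pass (-1.24, SE 0.64, adjusted p = 0.244). The 3 OSK libraries with an omission had 311 to 370 CPM on day 3. Gdf3, a TGF-beta family ligand gene, had 0.968 and 15.2 CPM in OvSvK and 0.335 and 17.3 CPM in OSK and did not pass (adjusted p = 0.759).

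**Figure D2:**
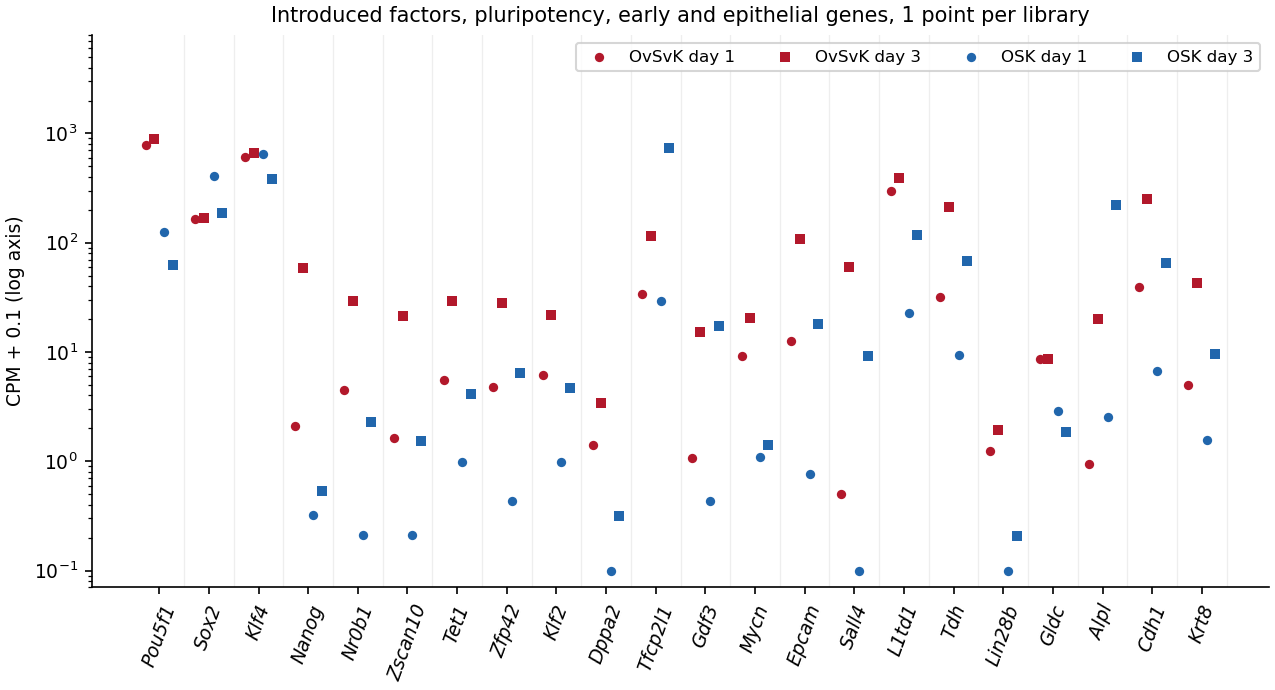
CPM + 0.1 on a log axis in each of the 4 libraries for the introduced factors and selected pluripotency, early reprogramming and epithelial genes, with OvSvK in red, OSK in blue, circles for day 1 and squares for day 3. Nanog, Mycn and Lin28b have both OvSvK libraries above both OSK libraries, while Tfcp2l1 and Alpl have OSK on day 3 at the top.

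Nanog is a textbook target of the Oct4 and Sox2 pair, and its promoter holds their joined motif. The joined motif was searched as TTGT, any 1 base and ATGCAAA on both strands in 300 bases around each listed start of a gene, from 250 before to 50 after it (RefSeq, build GRCm38.p6), and a gene with several starts counts once if any of them holds it. It occurs in 10 of 27025 genes with a promoter, or 0.037%, and in 6 of the 10279 tested among them, or 0.0584%. Of the genes called it occurs in 3 of 619 called higher and in none of 335 called lower. The 3 are Nanog, Nrarp, a Notch feedback gene, and Astn1. The octamer ATGCAAAT, which shares its first 7 letters with the end of the joined motif, occurs in 1.97% of all genes, 1.73% of those tested, 2.75% of those called higher and 2.69% of those called lower. Zfp42 holds it and was called higher. Spp1, the osteopontin gene, was also called higher and holds it beside a start that lies inside the gene. The promoters of Nanog and Zfp42 are shown so that the site can be read, each 5′ to 3′ on the strand of the gene, with the motif in capitals. Nanog is at chr6:122707239-122707538 on the plus strand, with the motif on the opposite strand 64 to 75 bases before the start. Zfp42 is at chr8:43306960-43307259 on the minus strand. A match describes the letters only.
Nanog: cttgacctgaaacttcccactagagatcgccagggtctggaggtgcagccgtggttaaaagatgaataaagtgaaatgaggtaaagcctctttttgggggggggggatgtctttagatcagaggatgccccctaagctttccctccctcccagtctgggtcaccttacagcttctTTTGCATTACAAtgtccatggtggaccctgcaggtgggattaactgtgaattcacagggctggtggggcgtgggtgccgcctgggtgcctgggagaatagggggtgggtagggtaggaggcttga
Zfp42: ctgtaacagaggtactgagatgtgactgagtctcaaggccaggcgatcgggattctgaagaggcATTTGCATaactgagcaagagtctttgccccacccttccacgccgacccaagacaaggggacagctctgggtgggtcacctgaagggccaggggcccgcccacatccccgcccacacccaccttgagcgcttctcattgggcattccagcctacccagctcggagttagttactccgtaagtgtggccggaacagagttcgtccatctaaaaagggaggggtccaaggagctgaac

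Spp1 had 251 and 231 CPM in OvSvK, against 73.1 and 107 CPM in OSK (1.45, SE 0.29, adjusted p = 0.0276). In GFP it stood at 451 and 3072 CPM, above all 4 libraries. OSK with an omission had 42.6 to 224 CPM of Spp1 on day 3, and the difference against those libraries was 0.62. Of the 7 genes listed for a known Oct4-Sox2 element, 6 were tested and 3 were higher, namely Nanog, Zscan10 and Spp1. Fbxo15, Lefty1 and Fgf4 did not pass, with log2 differences of 1.12, -0.58 and 0.64.

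Of 15 genes listed for early reprogramming, 12 were tested, 7 were higher and 1 was lower in OvSvK, with a median log2 difference of 2.01. Epcam, an epithelial adhesion gene, had 12.5 and 107 CPM in OvSvK and 0.669 and 17.8 CPM in OSK (3.11, SE 0.42, adjusted p = 0.0123). Mycn, the Myc family gene of embryonic cells, had 9.17 and 20.5 CPM in OvSvK and 1.00 and 1.31 CPM in OSK (3.59, SE 0.48). L1td1, an RNA-binding protein gene, had 295 and 390 CPM in OvSvK and 22.6 and 118 CPM in OSK (2.70, SE 0.48). Mycn and L1td1 had both OvSvK libraries above both OSK libraries, and Epcam did not.

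Sall4, a zinc finger partner of Oct4, had 0.399 and 59.8 CPM in OvSvK, against 0 and 9.09 CPM in OSK, and was higher by 2.80 (SE 0.49). Tdh, the threonine dehydrogenase of mouse stem cells, had 31.5 and 212 CPM in OvSvK and 9.26 and 67.7 CPM in OSK (1.70, SE 0.28). Lin28b and Gldc were higher by 4.56 (SE 1.08, adjusted p = 0.0418) and 1.92 (SE 0.49, adjusted p = 0.0483). The call of Lin28b ended with the GC trend removed (adjusted p = 0.0531). Lin28a, too low on day 1 to be tested, had 0.285 and 20.8 CPM in OvSvK and no count in OSK, at least 63.4-fold higher on day 3.

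Alpl, the alkaline phosphatase used as an early marker of reprogramming, was the member that was lower. It had 0.854 and 19.8 CPM in OvSvK and 2.45 and 221 CPM in OSK (-2.82, SE 0.49, adjusted p = 0.0203). OSK with an omission had 150 to 186 CPM on day 3. Alpl and Tfcp2l1 thus stood lower in OvSvK on day 3 while most listed pluripotency genes stood higher.

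Epithelial genes were higher where they passed. Of 23 listed, 16 were tested, 4 were higher and none lower, with a median of 1.08. Cdh1, which encodes E-cadherin, had 39.6 and 250 CPM in OvSvK and 6.58 and 65.7 CPM in OSK (2.24, SE 0.31, adjusted p = 0.013). St14, a membrane protease gene, was higher by 2.03 (SE 0.38), and the keratin gene Krt8 by 2.01 (SE 0.37), with 4.90 and 42.8 CPM in OvSvK and 1.45 and 9.42 CPM in OSK. Dsp, which encodes the desmosomal desmoplakin, had 172 and 249 CPM in OvSvK and 86.0 and 352 CPM in OSK and did not pass (adjusted p = 0.712). The splicing regulator gene Esrp1 was too low to be tested, with 0.114 and 4.77 CPM in OvSvK and no count in OSK.

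No mesenchymal transcription factor gene passed, and fibroblast genes passed in both directions. Of 10 genes for mesenchymal transcription factors 9 were tested and none passed in either direction, with a median of 0.33, Snai1, Zeb1 and Twist1 among them at 0.59, 0.33 and -0.44. Of 24 fibroblast matrix and surface genes 23 were tested, 2 were higher and 2 lower, with a median of -0.08. The share called was 17.4%, against 9.53% of all genes tested. The summed level of those 24 genes was 20536 and 11162 CPM in OvSvK, against 32177 and 16657 CPM in OSK. In bulk RNA, fewer cells of a type and less RNA per cell cannot be told apart.

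Col1a2, a chain of type I collagen, had 2184 and 869 CPM in OvSvK and 7653 and 5535 CPM in OSK (-2.24, SE 0.27, adjusted p = 0.0123). Fbn1, the fibrillin of elastic microfibrils, had 1213 and 655 CPM in OvSvK and 3041 and 1702 CPM in OSK (-1.35, SE 0.22, adjusted p = 0.0182). Both genes had both OvSvK libraries under both OSK libraries. Col1a1, the partner chain of Col1a2, did not pass, with 1752 and 941 CPM in OvSvK and 3430 and 668 CPM in OSK (adjusted p = 0.7). Dcn and Postn, the matrix genes decorin and periostin, were higher in OvSvK by 1.41 and 1.53 (adjusted p = 0.0395 and 0.0426), and the differences were 0.16 and 0.06 against the OSK libraries with an omission on day 3. With the GC trend removed Postn did not pass (adjusted p = 0.0516).

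Smooth muscle and TGF-beta target genes gave no call among 15 tested. Tagln had 305 and 21.2 CPM in OvSvK and 286 and 6.24 CPM in OSK, and Acta2 707 and 87.2 CPM in OvSvK and 680 and 44.5 CPM in OSK. Both genes were lower on day 3 than on day 1 in each arm. Among 14 immediate early and AP-1 genes Fosl2 was lower (-1.52, SE 0.27, adjusted p = 0.0209), with 40.9 and 28.0 CPM in OvSvK and 123 and 77.0 CPM in OSK, and no other member passed. This call is 7.14% of the list, against 9.53% of all genes tested.

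Among called genes averaging 5 CPM or more, the 4 largest log2 differences toward OvSvK were those of Pdyn, Rfx4, Camkv and Insm1, which are known from neural or neuroendocrine cells. Rfx4 (chromosome 10, 84756062 to 84906538), a transcription factor gene of the neural tube, had 30.6 and 134 CPM in OvSvK, against 0 and 0.766 CPM in OSK (7.81, SE 0.54, adjusted p = 0.00456). It was at least 91.5-fold higher on day 1 and 175-fold higher on day 3 (interval 84.6 to 435). Pdyn (chromosome 2, 129686565 to 129699844), the gene of the opioid precursor prodynorphin, had 3.93 and 52.2 CPM in OvSvK, against 0 and 0.219 CPM in OSK (7.89, SE 0.64). Both genes were near 0 in GFP, with at most 0.13 CPM on days 1 and 3.

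Insm1, a zinc finger gene of neuroendocrine cells, had 43.2 and 79.1 CPM in OvSvK, against 0 and 1.2 CPM in OSK (6.81, SE 0.65). Camkv, a kinase-like gene of neurons, had 5.24 and 20.2 CPM in OvSvK, against 0 and 0.109 CPM in OSK (7.64, SE 0.79). Nkx1-2, a homeobox gene, had 0.683 and 28.2 CPM in OvSvK, against 0 and 0.985 CPM in OSK (4.87, SE 0.65). The cytoskeletal regulator gene Filip1 had 38.4 and 51.5 CPM in OvSvK and 1.78 and 1.86 CPM in OSK (4.6, SE 0.37), and the gene 9330159F19Rik 21.2 and 27.1 CPM in OvSvK and 1.23 and 0.328 CPM in OSK (4.98, SE 0.58). In all 5 genes both OvSvK libraries were above the OSK library of the same day, as the choice of these genes required.

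Among 16 genes listed as neural, 11 were tested, 5 were higher and none lower, with a median of 1.66. Tubb3, the neuronal beta-tubulin, had 503 and 315 CPM in OvSvK and 71.3 and 12.4 CPM in OSK (3.71, SE 0.47, adjusted p = 0.0123). Map2 and Stmn2, genes of the neuronal cytoskeleton, were higher by 2.09 and 1.66. Nes, the intermediate filament of neural precursors, was higher by 1.59 (SE 0.24), with 837 and 786 CPM in OvSvK and 270 and 271 CPM in OSK. In the authors' series table Tubb3, Map2, Stmn2 and Nes had scores of 769, 156, 1070 and 891 in embryonic stem cells. Their scores in embryonic fibroblasts were 570, 758, 214 and 4086, so these genes are not particular to neural cells in the series. Sox21 was higher by 2.84 (SE 0.58, adjusted p = 0.028), and its call ended with the GC trend removed (adjusted p = 0.0922). The precursor genes Pax6, Olig2 and Sox3 stayed under 1 CPM in all 4 libraries, and Zic1 and Ncam1 did not pass, at -0.11 and -0.85. The 7 genes Pdyn, Rfx4, Camkv, Insm1, Nkx1-2, Filip1 and 9330159F19Rik had at most 2.65 CPM in the OSK libraries with an omission on day 3.

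**Figure D3:**
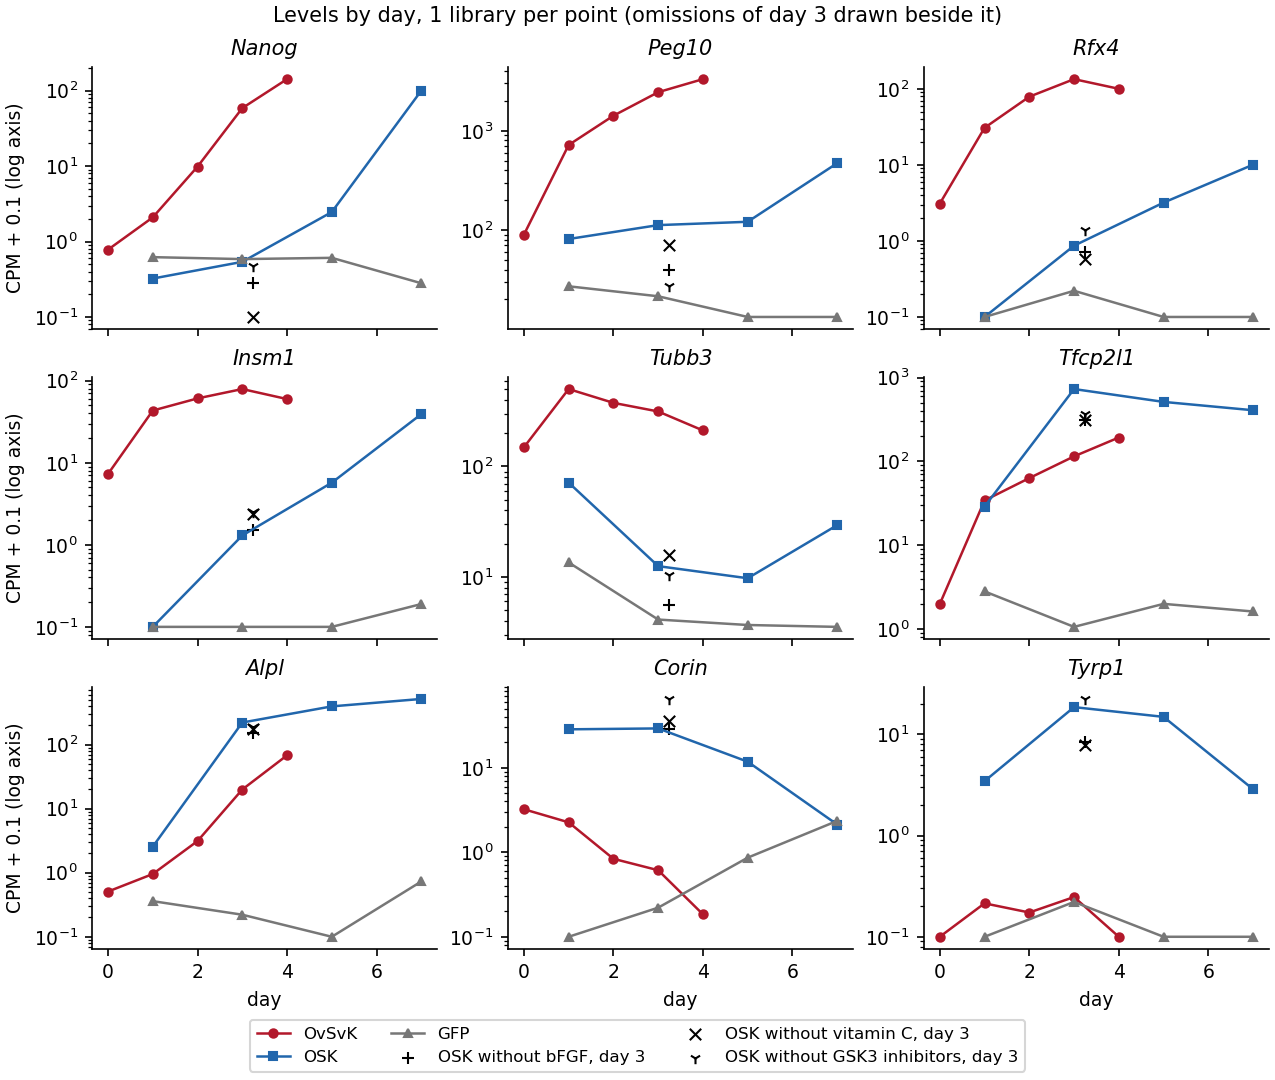
CPM + 0.1 on a log axis by day for 9 genes, 1 library per point, with OvSvK in red, OSK in blue, GFP in grey and the 3 OSK libraries with an omission on day 3 in black. Nanog, Rfx4 and Insm1 are higher on day 3 than on day 1 in OvSvK and stay lower in OSK up to day 5, and Tyrp1 and Corin are higher on days 1 and 3 in OSK, with or without an omission, than in OvSvK and GFP.

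Several of the genes lowest in OvSvK were present in OSK and near 0 in GFP. Tyrp1, an enzyme gene of melanin synthesis, had 0.114 and 0.147 CPM in OvSvK, 2 counts in each library, against 3.35 and 18.5 CPM in OSK (-6.01, SE 0.74, adjusted p = 0.0123). Its levels in GFP were 0 and 0.121 CPM, and in OSK with an omission 7.72 to 22.3 CPM on day 3. Corin, a membrane protease gene, had 2.16 and 0.513 CPM in OvSvK and 28.4 and 29.1 CPM in OSK (-4.55, SE 0.55), against 0 and 0.121 CPM in GFP. Strip2 had 6.66 and 2.20 CPM in OvSvK and 54.4 and 62.2 CPM in OSK (-3.85, SE 0.48), against 0.26 and 0.242 CPM in GFP.

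Prrt4 had 0.911 and 0.66 CPM in OvSvK and 6.36 and 59.9 CPM in OSK (-4.65, SE 0.82). Arhgap36, on the X chromosome, had 2.56 and 0.587 CPM in OvSvK and 15.8 and 41.5 CPM in OSK (-4.11, SE 0.77). Mylk4, a myosin light chain kinase gene, was lower by a log2 difference of -4.97, and Slc16a9, a monocarboxylate transporter gene, by -4.14. In the OSK libraries with an omission Prrt4 had 18.5 to 74.6 CPM, Arhgap36 27.6 to 193 CPM, Mylk4 3.31 to 7.00 CPM and Slc16a9 16.4 to 24.5 CPM, each above OvSvK on day 3. The calls of Prrt4 and Arhgap36 ended with the GC trend removed (adjusted p = 0.0603 and 0.0685). The unannotated RP23-159J2.2 was lower by -4.54 (SE 0.52).

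Of the other 4 of the 12 lowest, Rpsa-ps10, Gm26751 and Gm26527 differ between the sets of libraries as well, and Rpl9-ps7 does not follow the sets. Rpsa-ps10 had 2.79 and 3.89 CPM in OvSvK and 158 and 92.8 CPM in OSK (-5.20, SE 0.41), against 1.51 to 4.21 CPM in OSK with an omission. Gm26751, a long noncoding RNA, had no count in OvSvK and 13.5 and 9.53 CPM in OSK, at least 79.0-fold and 43.3-fold lower. It had at most 1.43 CPM in OSK with an omission on day 3. Gm26527 had no count in OvSvK and 1.00 and 22 CPM in OSK, and no count in OSK with an omission on day 3. DESeq2 did not call Gm26751 (adjusted p = 0.0835) or Gm26527 (adjusted p = 0.178). The pseudogene Rpl9-ps7 had 2.56 and 0.88 CPM in OvSvK and 28.2 and 23.0 CPM in OSK, while OSK on day 3 had 55.5 CPM without bFGF, 1.96 CPM without GSK3 inhibitors and 0 CPM without vitamin C. The counts of Rpsa-ps10 and Rpl9-ps7 share reads with their parent genes and are uncertain.

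Some interferon-inducible GTPase genes were higher in OvSvK, and 2 other listed interferon response genes were lower. These GTPases act on the membranes of intracellular pathogens, and many are induced by interferon gamma. Iigp1 had 0.911 and 434 CPM in OvSvK, against 0 and 4.16 CPM in OSK (6.70, SE 0.48, adjusted p = 0.00456). Gbp4, a guanylate-binding protein gene, had 4.73 and 379 CPM in OvSvK, against 0.669 and 6.46 CPM in OSK (5.11, SE 0.69, adjusted p = 0.0123). Tgtp2 had 1.37 and 484 CPM in OvSvK, against 0.446 and 9.09 CPM in OSK (5.11, SE 0.81, adjusted p = 0.0175), and DESeq2 did not call it (3.78, adjusted p = 0.0932). In all 3 genes most of the level was reached between day 1 and day 3 of OvSvK. OSK with an omission had at most 6.55 CPM of any of them on day 3, and GFP at most 7.27 CPM on days 1 and 3. Tgtp2 has a near-identical neighbour in Tgtp1, so their split of reads is uncertain. Tgtp1 had 3.07 and 867 CPM in OvSvK and 3.12 and 258 CPM in OSK and did not pass (adjusted p = 0.154).

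Of the 20 listed interferon response genes 19 were tested, 1 was higher, namely Iigp1, and 2 were lower, with a median of -0.28. The share called was 15.8%, against 9.53% of all genes tested. Usp18, a feedback inhibitor of interferon signalling, had 2.33 and 32.2 CPM in OvSvK and 9.26 and 126 CPM in OSK (-1.97, SE 0.29, adjusted p = 0.0152). Oas1a, a sensor of double-stranded RNA, had 4.04 and 55.1 CPM in OvSvK and 11.2 and 108 CPM in OSK (-1.19, SE 0.30, adjusted p = 0.046). Both were lower on both days, as were all 443 genes called lower. The summed level of the list was 192 and 3473 CPM in OvSvK and 272 and 2484 CPM in OSK, so day 3 was above day 1 in each arm. Isg15, a ubiquitin-like protein gene, did not pass, with a log2 difference of 0.03. The chemokine gene Cxcl10, not tested, had 0.0569 and 8.07 CPM in OvSvK and 0.669 and 0.109 CPM in OSK.

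**Figure D4:**
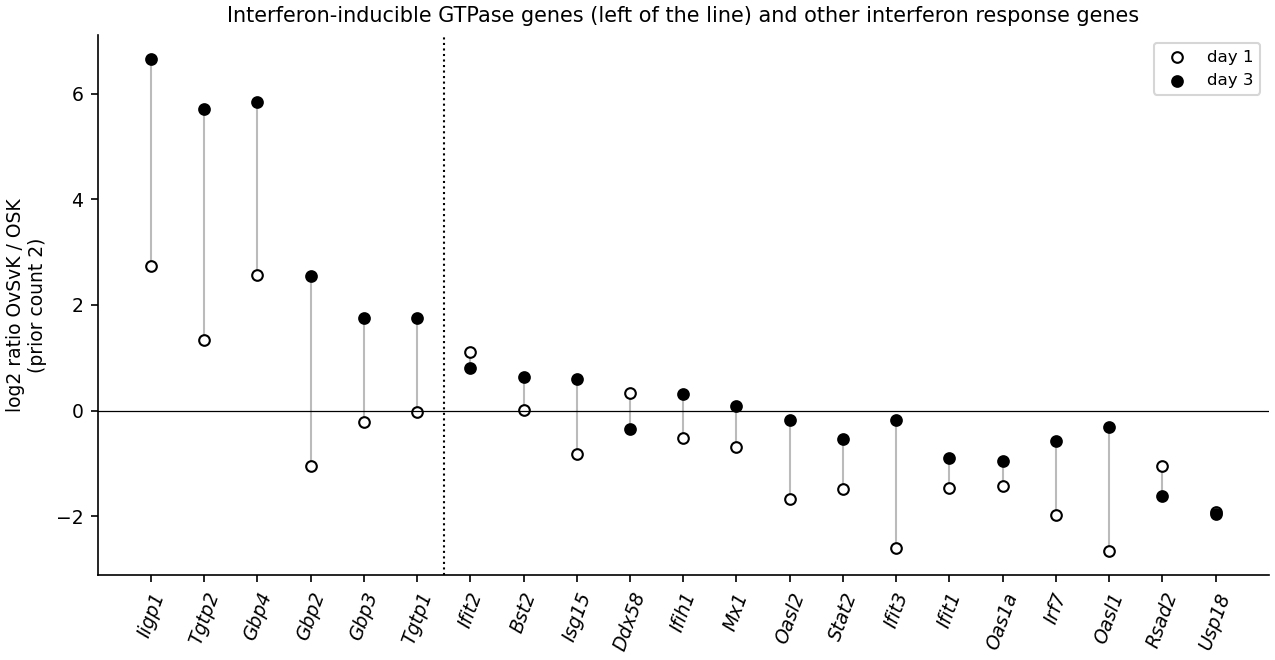
Log2 ratio of OvSvK to OSK on day 1 (open circles) and day 3 (filled circles) for 6 interferon-inducible GTPase genes, left of the dotted line, and other tested interferon response genes, grouped after their values were seen. The GTPase genes lie above 0 on day 3, up to 6.65 for Iigp1, and Usp18 lies near -2 on both days.

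The promoter of Tgtp2 is shown because it holds an element that interferon-regulated factors read, searched as GAAA, any 2 bases and GAAA on both strands. This motif occurs in 3.99% of all genes with a promoter, 3.74% of those tested, 4.36% of those called higher and 5.97% of those called lower, among them Oas1a. The Tgtp2 promoter is at chr11:49064163-49064462 (RefSeq, GRCm38.p6, minus strand), and the motif, in capitals, lies 61 to 70 bases before the start on the strand of the gene.
Tgtp2: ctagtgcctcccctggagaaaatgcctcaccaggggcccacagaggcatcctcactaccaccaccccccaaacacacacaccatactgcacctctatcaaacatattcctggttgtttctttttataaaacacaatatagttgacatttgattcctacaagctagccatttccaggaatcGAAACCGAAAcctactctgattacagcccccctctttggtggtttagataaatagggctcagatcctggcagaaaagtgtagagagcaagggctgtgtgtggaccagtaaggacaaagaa

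Genes of other lineages were mostly too low to be tested. Of 12 primitive streak and mesoderm genes 2 were tested and none passed, and T (Brachyury) had 0.171 and 8.95 CPM in OvSvK and 0 and 0.109 CPM in OSK. Of 10 endoderm genes 3 were tested and none passed. Of 10 trophoblast genes 3 were tested and Tfap2c, also a gene of germ cells and naive stem cells, was higher by 3.50 (SE 0.47, adjusted p = 0.0123), with 3.42 and 37.5 CPM in OvSvK and 0.446 and 2.74 CPM in OSK. Of 14 skeletal muscle genes 7 were tested and Ttn was higher by 2.84 (SE 0.54), with 4.61 and 11.6 CPM in OvSvK and 0.558 and 1.75 CPM in OSK. The call of Ttn makes 14.3% of the 7, against 9.53% of all genes tested. The muscle-determining genes Myod1 and Myf6 had no count in any of the 4 libraries. The synaptonemal complex gene Sycp1, the single germline gene tested of 11, was higher by 3.82 (SE 0.89, adjusted p = 0.0406), and with the GC trend removed its adjusted p was 0.0953.

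Markers of cell types that a fibroblast culture can hold gave calls in the endothelial, keratinocyte and erythroid lists, and none in the macrophage list. In each list with a call the share called was above the 9.53% of all genes tested. These shares rest on at most 5 tested members per list. Among 10 macrophage markers 4 were tested and none passed. Their summed level was 13.4 and 78.6 CPM in OvSvK and 30.1 and 47.3 CPM in OSK, of which Mpeg1 gave 71.4 CPM in OvSvK on day 3, and Ptprc, Aif1, Adgre1 and C1qa stayed under 1 CPM in all 4 libraries. Among 9 endothelial markers, with sums of 254 and 188 CPM in OvSvK and 118 and 176 CPM in OSK, the receptor gene Flt1 was higher by 2.10 (SE 0.53, adjusted p = 0.0481). Flt1 did not pass with the GC trend removed (adjusted p = 0.0782), and Emcn had no count in either library on day 3.

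Of 7 keratinocyte markers, with sums of 143 and 186 CPM in OvSvK and 172 and 164 CPM in OSK, 5 were tested and 2 were higher. Krt14 had 38.4 and 54.9 CPM in OvSvK and 2.01 and 2.85 CPM in OSK (4.26, SE 0.35, adjusted p = 0.00456), and Sfn was higher by 2.14 (SE 0.38). Krt5, the usual partner of Krt14, did not pass, with 0.456 and 1.47 CPM in OvSvK and 1.67 and 0.985 CPM in OSK, and Krt15 had 1 count in all, on day 3 of OvSvK. The median of the 5 was -0.60 in the fit and 1.03 and 0.51 in the ratios of days 1 and 3. Of 9 erythroid markers the embryonic globin Hbb-y alone was tested and was lower (-1.47, SE 0.29, adjusted p = 0.0246), with 37.4 and 56.8 CPM in OvSvK and 89.2 and 183 CPM in OSK. In GFP on days 1 and 3, Hbb-y had 0.26 and 0 CPM, Krt14 0 and 0.121 CPM and Sfn 3.26 and 1.45 CPM.

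Cell cycle genes as a whole stood close together, with a median of 0.15 over 24 tested. Of these 4 were higher and none lower, a share of 16.7%, against 9.53% of all genes tested. Mki67, the proliferation antigen Ki-67, had 756 and 596 CPM in OvSvK and 64.9 and 217 CPM in OSK (2.50, SE 0.48, adjusted p = 0.0248). Bub1, Kif11 and Top2a, which act in mitosis and on DNA topology, were higher by 1.85, 1.76 and 1.54. Their differences were 0.84, 1.12 and 1.08 with the GC trend removed (adjusted p = 0.0499, 0.0272 and 0.0271), and that of Mki67 was 2.42. Replication and division genes such as Mcm2, Plk1 and Ccnb1 did not pass, with log2 differences of 0.02, 0.13 and 0.19. Mki67 ranged from 91.7 to 411 CPM among the 3 OSK libraries with an omission.

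Of 13 polycomb and histone demethylase genes 3 were higher and none lower, with a median of 0.53. The share called was 23.1%, against 9.53% of all genes tested. Mtf2 and Ezh2, an accessory factor and the methyltransferase of Polycomb repressive complex 2, were higher by 2.16 (SE 0.34, adjusted p = 0.0175) and 1.36 (SE 0.28, adjusted p = 0.0277). Ezh2 had 136 and 152 CPM in OvSvK and 47.7 and 65.3 CPM in OSK. Kdm3a, a demethylase of histone H3, was higher by 1.21 (SE 0.29, adjusted p = 0.0429). Among 8 tested genes of DNA methylation Tet1 alone passed, and Dnmt1, Tet2 and Tet3 did not, at 0.04, -0.12 and -0.26. The call of Tet1 makes 12.5% of the DNA methylation list, near the share of all genes tested.

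Targets of signalling pathways were higher in part. Of 10 tested Wnt/beta-catenin targets 3 were higher and 1 lower, with a median of 0.41. Nkd1, an antagonist of the pathway, had 1.99 and 55.3 CPM in OvSvK and 0.781 and 5.58 CPM in OSK (2.67, SE 0.54, adjusted p = 0.0272), and Notum, another antagonist, was higher by 2.31. The transcription factor gene Sp5 was higher by 3.69 (SE 0.77). Axin2 did not pass (0.26, SE 0.30), and the cyclin gene Ccnd1 was lower, with 903 and 818 CPM in OvSvK and 2053 and 1367 CPM in OSK (-0.96, SE 0.24, adjusted p = 0.046). Against the OSK libraries with an omission on day 3, at 909 to 1045 CPM, the difference of Ccnd1 was -0.29. Of 11 FGF/ERK feedback genes Etv4 and Dusp4, a transcription factor and a phosphatase gene, were higher by 1.67 and 1.42 (adjusted p = 0.0406 and 0.042). Spry2 and Dusp6 did not pass, at -0.13 and 0.71. Shares called were 40.0% of the tested Wnt/beta-catenin targets and 18.2% of the FGF/ERK feedback genes, against 9.53% of all genes tested.

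Of 14 glycolysis genes Gpi1 and Tpi1 were lower and none higher, with a median of -0.41. Gpi1 had 603 and 483 CPM in OvSvK and 1164 and 984 CPM in OSK (-0.99, SE 0.23, adjusted p = 0.0406), and Tpi1 differed by -1.01 (adjusted p = 0.044). Of 10 serine and one-carbon genes Tdh and Gldc, described above, were higher. Among 8 heat shock genes Hsp90aa1 was higher, with 2087 and 1863 CPM in OvSvK and 431 and 610 CPM in OSK (1.94, SE 0.26, adjusted p = 0.0123), and Hspa8 did not pass (-0.18). Of 10 amino acid and unfolded protein stress genes none passed. Of 14 p53 target genes Pmaip1 (Noxa) was higher by 1.82 (SE 0.31), and by 1.18 with the GC trend removed (adjusted p = 0.0562), and Cdkn1a did not pass (-0.61, SE 0.24).

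Among 13 imprinted growth genes 2 were higher and none lower, with a median of -0.10. The share called was 15.4%, against 9.53% of all genes tested. Peg10, a gene of retrotransposon origin needed in the placenta, had 720 and 2450 CPM in OvSvK and 81.1 and 112 CPM in OSK (3.80, SE 0.37, adjusted p = 0.00897). Meg3, a maternally expressed long noncoding RNA, had 125 and 395 CPM in OvSvK and 28.0 and 78.9 CPM in OSK (2.24, SE 0.27, adjusted p = 0.0123). Peg10 in OSK with an omission was 27.2 to 70.2 CPM on day 3, and Meg3 104 to 201 CPM. Igf2 and H19 did not pass, at -0.75 and 0.03.

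Xist, the RNA that coats the inactive X chromosome of female cells, had 770 and 911 CPM in OvSvK and 19.1 and 72.0 CPM in OSK (4.48, SE 0.44, adjusted p = 0.00897). It stood at 166 CPM on day 0 of OvSvK, at 13.2 and 70 CPM in GFP on days 1 and 3, and at 51.8 to 142 CPM in OSK with an omission on day 3. The Y-linked genes Ddx3y, Eif2s3y, Uty and Kdm5d had counts in all 4 libraries and did not pass. Ddx3y had 25.3 and 24.8 CPM in OvSvK and 14.5 and 38.4 CPM in OSK. With the GC trend removed all 4 Y-linked genes were lower in OvSvK, by log2 differences of -1.28 to -1.61. The labels name no sex and no stock of cells, and the part of the cell stock in other differences was not tested. Of 475 tested X-linked genes 43 were higher and 25 lower, with a median log2 difference of 0.23, against 772 higher and 413 lower of 12690 autosomal genes and a median of 0.02. On day 3 alone the median ratio was 0.04 (log2) for X-linked and for autosomal genes, and on day 1 it was 0.41 for X-linked genes.

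Each day was also read alone, without a test. On day 1, 1747 genes were at least 2-fold higher in OvSvK, or 15.8% of 11040 genes reaching 5 CPM, and 843 lower, or 7.64%. On day 3, 1411 of 11527 were higher, or 12.2%, and 1113 lower, or 9.66%. The highest ratios of day 1 included Trh, the thyrotropin-releasing hormone gene, with 111 and 608 CPM in OvSvK and 0.558 and 216 CPM in OSK, so that the ratio was 199 on day 1 (interval 85.2 to 614) and 2.81 on day 3. Slc22a3, an organic cation transporter gene, had 12.7 and 18.2 CPM in OvSvK and 0.112 and 8.65 CPM in OSK. The lowest ratios of day 1 included Sv2c, a synaptic vesicle gene, with 2.11 and 2.42 CPM in OvSvK and 39.5 and 25.6 CPM in OSK. B930041F14Rik was listed at 0 in OvSvK and had 24.0 CPM in OSK on day 1 and 0 on day 3. Its only other counts were in GFP on day 1, at 24.0 CPM. Fndc10 lacked counts in exactly these libraries, so the ratio of B930041F14Rik is uncertain as a difference between the arms. On day 3 Kctd12 was listed at 0 in OSK, after 26.3 CPM on day 1, and had 76.9 and 39.8 CPM in OvSvK. OSK had 27.4 CPM of Kctd12 on day 5, and OSK with an omission 6.25 to 22.8 CPM on day 3. In GFP it was also listed at 0 on day 5, between 33.1 CPM on day 3 and 25.5 CPM on day 7. The ratio of Kctd12 on day 3 is therefore uncertain as a difference between the arms. Olfml1 had 0 and 0.0733 CPM in OvSvK and 0.112 and 10.7 CPM in OSK. Of the 10797 genes reaching 5 CPM on each day, 19 were 2-fold higher on day 1 and 2-fold lower on day 3, or 0.176%, and 9 the reverse, or 0.0834%.

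**Figure D5:**
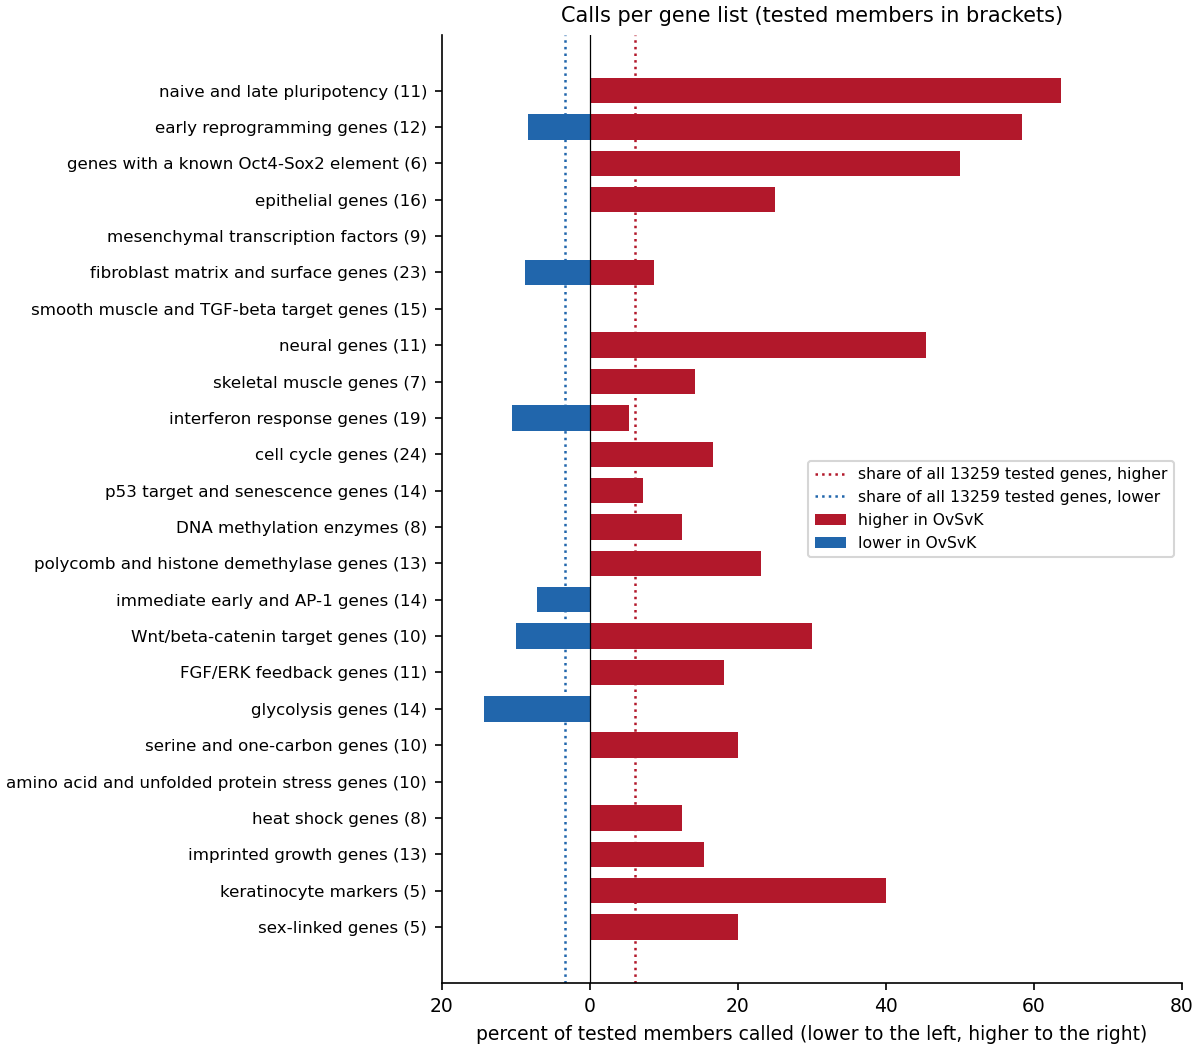
Percent of the tested members of each gene list called higher in OvSvK (red, to the right) or lower (blue, to the left), for lists with at least 5 tested members, with dotted lines at the shares of all genes tested, 6.18% and 3.34%. The naive and late pluripotency, early reprogramming, Oct4-Sox2 element and neural lists reach furthest to the right, and the mesenchymal transcription factor, smooth muscle and unfolded protein lists have no call.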

How the data were processed

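Per the submitters' processing notes, the authors made the deposited expected counts with RSEM 1.2.4 on mm10. The deposited series table holds 1 score per gene and sample, quantile-normalized whole numbers by its values, and was used for embryonic stem cells and embryonic fibroblasts and as an alternative. Deposited TPM values served an alternative. Expected counts of 24130 genes were rounded to whole numbers. Genes passing filterByExpr (13259) were scaled by TMM and fitted with edgeR 4.0.16 in R 4.3.3 (quasi-likelihood, robust, model of day and arm, 1 residual degree of freedom, Benjamini-Hochberg adjustment, threshold 0.05), and the script was tested on simulated data. Single-day ratios used a prior count of 2. CPM of the other libraries were set on the same scale. Intervals are exact Poisson intervals at 95%, floors are 3 counts per library, and both cover counting error only. No group has a replicate. Results of 2 named genes are not reported here.

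The members and the 32 gene lists were chosen with earlier results of these data known. Named genes are the 3 introduced factors, the 12 largest called differences in each direction among genes averaging 5 CPM or more, the 4 smallest p in each list, the 5 highest and lowest ratios of each day at 10 CPM or more, Xist and Y-linked genes, and the 5 largest turns in each direction. Other members of the lists, genes around them and the pair of genes that share the joined motif with Nanog were named after their values were seen. Gene symbols came from a GENCODE annotation for 23598 identifiers. Alternatives were RLE scaling, no filter, DESeq2 1.42.0, limma 3.58.1 on log2(TPM + 1), the arm alone, added libraries, removal of each library's GC trend, each day alone and a comparison within 1 set of libraries. Plots used python 3.11.15 and matplotlib 3.10.9, promoters RefSeq GRCm38.p6.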

Additional observations from a re-analysis of the deposited data

Results flagged for a closer look

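In 19 genes, or 0.176% of those reaching 5 CPM on each day, OvSvK was at least 2-fold above OSK on day 1 and at least 2-fold below it on day 3, and in 9 genes, or 0.0834%, the order was the reverse. With 1 library per arm and day the turn was not tested. The values are log2 ratios on day 3 minus those on day 1 for genes among the 5 largest turns in each direction.

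Fndc10 turned by -7.12, with 10.9 and 16.2 CPM in OvSvK on days 1 and 3 and 0 and 33.2 CPM in OSK. This turn is uncertain. Fndc10 lacked counts only in the day 1 libraries of OSK and GFP. B930041F14Rik had counts in those libraries alone, at 24.0 CPM in each. Whether both identifiers share reads was not tested. Slc7a3, a cationic amino acid transporter gene, turned by -3.93, with 159 and 232 CPM in OvSvK and 25 and 558 CPM in OSK. Cnr1, a cannabinoid receptor gene, turned by -3.46, with 67.0 and 46.9 CPM in OvSvK and 25.1 and 195 CPM in OSK. In Slc7a3 and Cnr1 OvSvK changed less between the days than OSK did. Rgs4, a regulator of G-protein signalling, turned by -3.64, with 85.6 and 9.97 CPM in OvSvK and 33.6 and 49.5 CPM in OSK.

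Gbp2 and Tap2, interferon-inducible genes of a GTPase and of peptide transport, turned by 3.59 and 2.73. Gbp2 had 5.41 and 440 CPM in OvSvK and 11.4 and 75.3 CPM in OSK. The matrix genes Prelp and Emilin2 turned by 2.69 and 2.16, and Tro by 2.17. Prelp had 33.8 and 32.6 CPM in OvSvK and 86.3 and 12.8 CPM in OSK.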

How the results depend on the processing

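The 820 higher and 443 lower calls became 0 and 0 without day as a block (edgeR, 2309 genes at an unadjusted p under 0.05), with day 0 added (2991 genes) and with GFP added (2834 genes), against 1036 and 624 by DESeq2. They became 1719 and 1177 without the filter on low counts, 1971 and 1512 with all 20 libraries and 93 and 28 within 1 set of libraries, of which 58 and 21 were shared with the calls reported. With the GC trend removed, 999 were higher and 939 lower, of which 633 and 421 were shared with the calls reported. The median GC content was 44.7% in the 820 genes called higher and 51.4% in the 443 called lower, against 50.5% in all genes tested. Genes 2-fold apart on both days became 421 and 264 at 20 CPM, and 112 and 43 at 4-fold, against 672 and 397. The cause was not tested beyond the change of genes or samples. Rpsa-ps10 reversed within 1 set (0.64) and Ddx3y with the GC trend removed (-1.51). No other named gene reversed where either fit called it.

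Leaving out 1 day, the list medians (log2) ranged as follows. They were 2.19 to 2.48 for naive and late pluripotency, 1.77 to 1.95 for early reprogramming, -0.03 to 0.35 for mesenchymal transcription factors, 1.63 to 1.64 for neural genes and -1.15 to 0.53 for endoderm. They were -0.83 to -0.17 for interferon, 0.17 on each day for cell cycle, 0.30 to 0.42 for p53 targets, 0.03 to 0.20 for DNA methylation and 0.52 to 0.73 for polycomb. They were -0.47 to -0.24 for glycolysis, -0.04 to 0.20 for heat shock, -0.22 to -0.09 for imprinted genes, 1.03 to 1.88 for endothelial and 0.51 to 1.03 for keratinocyte markers. Under RLE scaling the neural median was 1.64 and that of cell cycle genes 0.13. Against the fit, the median changed sign without day 1 for endoderm, heat shock, fibroblast (0.14) and smooth muscle (0.07) genes. It changed sign without day 3 for mesenchymal transcription factors, introduced factors (-0.08), skeletal muscle (-0.18), AP-1 (-0.12), serine (-0.05), unfolded protein (-0.17) and sex-linked genes (0.53). It changed sign without either day for keratinocyte markers and DNA methylation. The fit reported pairs the arms by day, and no replicate number offers another pairing. Each library's depth limits genes under about 0.3 CPM.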
